A study of Homo sapiens with 31 samples.

Results

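The 4766 target regions described here were ligated to a miRNA in Huh-7.5 cells although none of them held a match to that miRNA's seed. They were taken from a table of chimeric reads, in which each line is an interaction between a miRNA and the genomic region it was joined to. An interaction was counted when its seed match entry was empty, which means that neither a perfect match, nor a match with 1 mismatch or bulge, nor a 5mer or 6mer-A1 match had been found in the region. Interactions on the mitochondrial genome were left out. The members made up 4766 of 31941 nuclear interactions, 14.9% (95% Wilson interval, 14.5 to 15.3), and 5123 of 34530 chimeric reads. The whole table holds 32712 interactions.

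Huh-7.5 cells are a cultured line from a human hepatoma. The series holds 31 libraries of RNA crosslinked by ultraviolet light to Argonaute (AGO) and purified with it, of which 19 were made by the standard protocol (AGO HITS-CLIP) and 12 by CLEAR-CLIP, a version of the protocol that looks for miRNAs joined to their targets by ligation. Of the standard libraries, 4 were from cells given LNA-122, a locked nucleic acid against miR-122, 4 from cells given miravirsen, a miR-122 inhibitor, 4 from mock-treated cells and 7 from untreated cells. Of the CLEAR-CLIP libraries, 10 were prepared without adding T4 RNA ligase. Among these, 6 were from cells overexpressing HSPC117, itself an RNA ligase, digested with RNAse A at a high amount, RNAse A at a low amount or RNAse T1 (2 each), 2 from cells given siRNA against HSPC117 and 2 from cells for which no change to HSPC117 is named. The other 2 were given T4 RNA ligase. The siRNA libraries and those with HSPC117 unchanged, with or without T4 RNA ligase, were digested with RNAse A at a low amount. All chimeras were deposited as a single pooled table that names no library. Libraries and treatments could therefore not be compared, there is no replicate error, and cells in which miR-122 was inhibited could not be separated from the others. Intervals and p-values therefore refer to interactions drawn from this pool and cover counting error only, and interactions of the same miRNA, gene or place are not independent of each other.

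miRNAs guide AGO to target RNAs by base pairing. In the usual mode the seed, bases 2 to 8 counted from the 5′ end of the miRNA, pairs with the target without interruption, and bases further along may add auxiliary pairs. Most studied repression in animals runs through such seed matches in 3′-UTRs, and AGO holds the seed in a shape that is ready to pair. A chimera shows which miRNA sat beside which RNA fragment, without reference to the pairing between them.

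The miRNAs on which the results turn are printed here so that their seeds and 3′ portions can be compared. The sequences are those of RefSeq on GRCh38.p14, written from the 5′ end, with bases 2 to 8 in capitals. miR-4488, miR-4455, miR-574-5p, miR-5684 and miR-92b-3p had the largest odds of lacking a seed match. miR-92a-3p, miR-25-3p and miR-32-5p share the seed of miR-92b-3p, miR-30a-5p and miR-30c-5p share another, and miR-122-5p and miR-17-5p stood on the low side.
miR-4488: aGGGGGCGggcuccggcg
miR-4455: aGGGUGUGuguguuuuu
miR-574-5p: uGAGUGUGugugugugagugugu
miR-5684: aACUCUAGccugagcaacag
miR-92b-3p: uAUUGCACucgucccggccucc
miR-92a-3p: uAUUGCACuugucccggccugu
miR-25-3p: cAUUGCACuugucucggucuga
miR-32-5p: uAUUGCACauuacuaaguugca
miR-30a-5p: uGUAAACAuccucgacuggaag
miR-30c-5p: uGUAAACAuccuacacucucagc
miR-122-5p: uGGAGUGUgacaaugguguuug
miR-17-5p: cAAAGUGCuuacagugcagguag
On that build miR-4488 lies at chr11:61508599-61508616 on the plus strand, miR-574-5p at chr4:38868056-38868078 on the plus strand, miR-92b-3p at chr1:155195237-155195258 on the plus strand and miR-122-5p at chr18:58451088-58451109 on the plus strand. miR-4488 is 18 bases long and miR-4455 17, shorter than the others shown. A long stretch of alternating G and U runs through miR-574-5p, and a shorter one lies in miR-4455. Of the miRNA names in the table, 408 were matched to a sequence, and these account for 3988 of the 4766 members.

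Members came from 304 of 530 miRNAs. The 20 leading miRNAs held 59.7% of them (58.3 to 61.1), and 14 miRNAs sufficed for 50%. By number, miR-17-5p came first with 282 members. miR-19a-3p had 212 of them, miR-194-5p 210, miR-320a 203, miR-92a-3p 190, miR-186-5p 183, miR-16-5p 182 and miR-574-5p 181. miR-17-5p, miR-19a-3p and miR-92a-3p are made from the miR-17-92 cluster, which promotes proliferation. Since miRNAs differed in how often they were found at all, the share without seed match was compared between them.

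That share differed between miRNAs by far more than the sampling error. Of 82 miRNAs with at least 50 interactions, 13 (15.9%) had a higher share than all other interactions together and 18 (22.0%) a lower one (Fisher's exact test, Benjamini–Hochberg adjusted p under 0.05). For miR-4488, 102 of 139 interactions had no seed match, 73.4% (65.5 to 80.0), with an odds ratio of 16.0 against all other interactions. miR-4455 followed with 47 of 75, 62.7% (51.4 to 72.7), and miR-5684 with 33 of 71, 46.5% (35.4 to 58.0). miR-574-5p, with a larger number, had 181 of 396 or 45.7% (40.9 to 50.6), at odds 4.95 times those of the rest (adjusted p = 2.8e-47, Fisher's exact test). The largest shares were those of miR-4488, miR-4455 and miR-5684, each with at most 139 interactions. Some miRNAs with few interactions also stood at the low end, such as miR-4279 with 5 of 136 (3.68%). Among the miRNAs past 40%, miR-574-5p was the most frequent.

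Smaller excesses were found for miR-92b-3p (29 of 80, 36.3%), for miR-122-3p (27 of 78, 34.6%), which is the passenger strand of the liver miRNA miR-122, for miR-191-5p (58 of 189, 30.7%) and for miR-196a-5p (89 of 311, 28.6%), a miRNA encoded in the HOX gene clusters. miR-30a-5p had 136 of 655 (20.8%) and miR-30c-5p 108 of 550 (19.6%). miR-21-5p, which is abundant in tumours, had 126 of 636 (19.8%). For miR-186-5p and miR-19a-3p the share was 17.8% each, from 183 of 1026 and 212 of 1189. The odds ratio was 1.25 for both, so that a passed test does not mean a large difference for frequent miRNAs.

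On the low side, miR-122-5p, the predominant miRNA of hepatocytes, had 64 of 1066 interactions without seed match, 6.00% (4.73 to 7.59), with an odds ratio of 0.356 (adjusted p = 7.8e-19, Fisher's exact test). The lowest odds were those of miR-4279, with 5 of 136 (3.68%), and miR-483-3p, with 4 of 84 (4.76%). miR-23a-3p had 91 of 1083 (8.403%), miR-27a-3p from the same cluster 115 of 1045 (11%), miR-320a 203 of 1762 (11.5%) and miR-17-5p 282 of 2448 (11.5%). miR-365a-3p, miR-425-5p, miR-32-5p, miR-151a-3p, miR-26a-5p, miR-26b-5p, miR-20a-5p, miR-93-5p, miR-374a-5p, miR-130a-3p and miR-103a-3p also passed, at 6.73% to 12%. The miRNAs with the most members thus lay on both sides of the overall share. Those under 50 interactions, 448 in all, had a pooled share of 19.2% (17.8 to 20.6), against 14.5% (14.1 to 14.9) over the 82 that were tested.

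**Figure D1:**
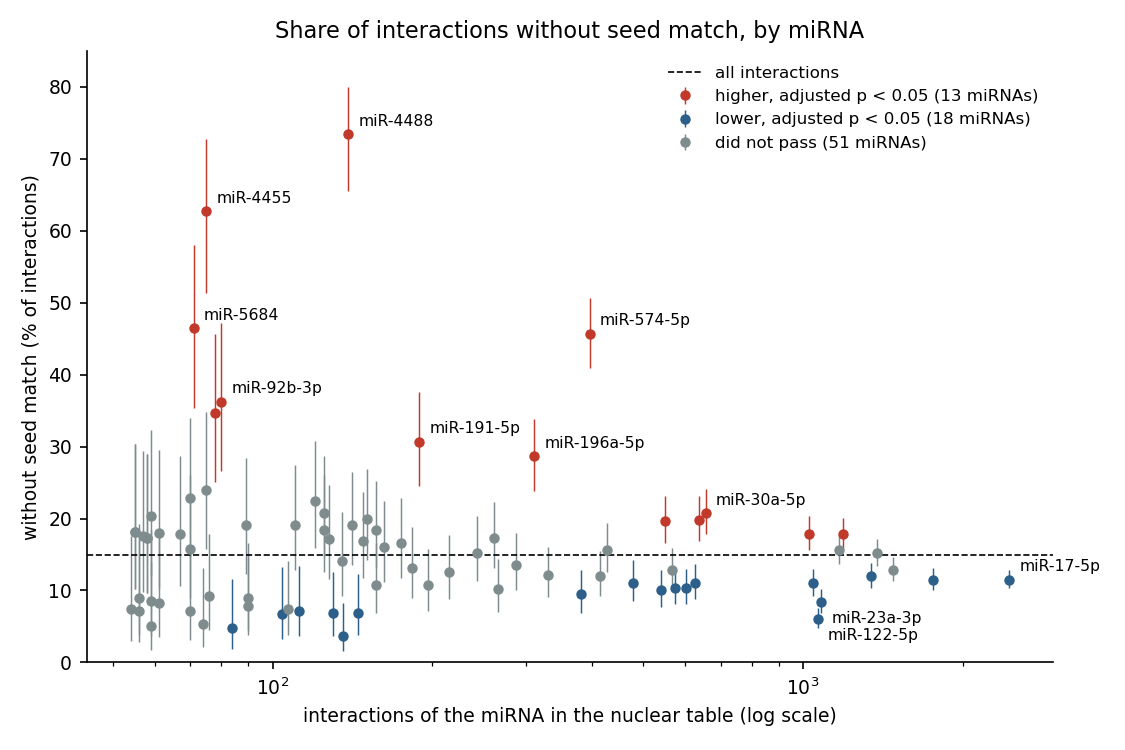
Share of interactions without seed match (in percent, with 95% Wilson intervals) against the number of interactions of the miRNA on a log scale, for the 82 miRNAs with at least 50 nuclear interactions. Points over 40% are miR-4488, miR-4455, miR-5684 and miR-574-5p, and the most frequent miRNA, miR-17-5p, lies at 11.5%, below the dashed line of 14.9% for all interactions.

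The length of the sequenced target fragment moved with the share. Among interactions whose fragment was 21 to 25 nt long, 26.7% (25 to 28.4) had no seed match, against 18.1% at 26 to 30 nt, 13.9% at 31 to 40 nt, 13.1% at 41 to 50 nt and 13.6% from 51 nt on. Of the members, 14.6% had a fragment of at most 25 nt, against 7.05% of the regions with a seed match. All but a few miR-4488 fragments were short, 137 of 139 being at most 25 nt, and 24 of the 29 members of miR-92b-3p had a fragment of 21 nt, against 18 of its 51 regions with a seed match. In fragments of over 30 nt, a restriction chosen after seeing the data, miR-574-5p kept its share, 119 of 259 (45.9%), and miR-5684 had 27 of 51 (52.9%). miR-4455 had 19 of 37 (51.4%, 35.9 to 66.6), against 62.7% over all fragments. The share of miR-92b-3p was 5 of 35 (14.3%, 6.26 to 29.4). miR-4488 had 0 of 2, an interval of up to 65.8%. Within fragments of 21 to 25 nt, miR-4488 had 74.5% (66.6 to 81.0) and miR-92b-3p 54.5% (40.1 to 68.3), against the 26.7% of all interactions. Under that restriction 72 miRNAs could be tested, 9 were higher and 8 lower, and all of them had also passed over all fragments. Of the miRNAs with a higher share, miR-21-5p no longer passed, and miR-4488, miR-4455 and miR-92b-3p had too few interactions for the test. Of the 18 with a lower share, 10 no longer passed, namely miR-93-5p, miR-26a-5p, miR-26b-5p, miR-20a-5p, miR-32-5p, miR-103a-3p, miR-425-5p, miR-365a-3p, miR-151a-3p and miR-483-3p. The part of fragment length in the differences between miRNAs was not tested beyond these values.

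miRNAs with the same seed can share seed matches, while their 3′ portions differ to varying degrees. Among the tested miRNAs with a known sequence, 25 fell into 10 groups with a common seed, and their shares were compared pair by pair, a comparison added after seeing the data. Of 22 pairs, 3 (13.6%) differed (Fisher's exact test, adjusted p under 0.05, where 6 had an unadjusted p under 0.05), and all 3 were pairs of miR-92b-3p. It had no seed match in 36.3% of interactions, against 12.9% for miR-92a-3p (adjusted p = 2.9e-06), 10.7% for miR-25-3p (adjusted p = 1.4e-05) and 6.92% for miR-32-5p (adjusted p = 2.9e-06), all from Fisher's exact test. From miR-92a-3p to miR-92b-3p the bases change as U10C, G21C and U22C, counted from the 5′ end, so the seed bases are identical. By fragment length, miR-92b-3p had 24 of 44 (54.5%, 40.1 to 68.3) at 21 to 25 nt, against 15 of 77 (19.5%, 12.2 to 29.7) for miR-92a-3p. Over 30 nt its share was 14.3%, as given above.

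The other groups were closer together. miR-30a-5p and miR-30c-5p had 20.8% and 19.6%, miR-181b-5p and miR-181a-5p 13.5% and 12.1%, and the group of miR-17-5p lay between 10% for miR-20a-5p and 12.05% for miR-106b-5p. Unadjusted p-values were under 0.05 for miR-15a-5p and miR-16-5p (17.2% and 15.6%) against miR-15b-5p (10.2%), and for miR-19a-3p (17.8%) against miR-19b-3p (10.8%), and these pairs did not pass after adjustment (adjusted p = 0.11 each, Fisher's exact test).

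**Figure D2:**
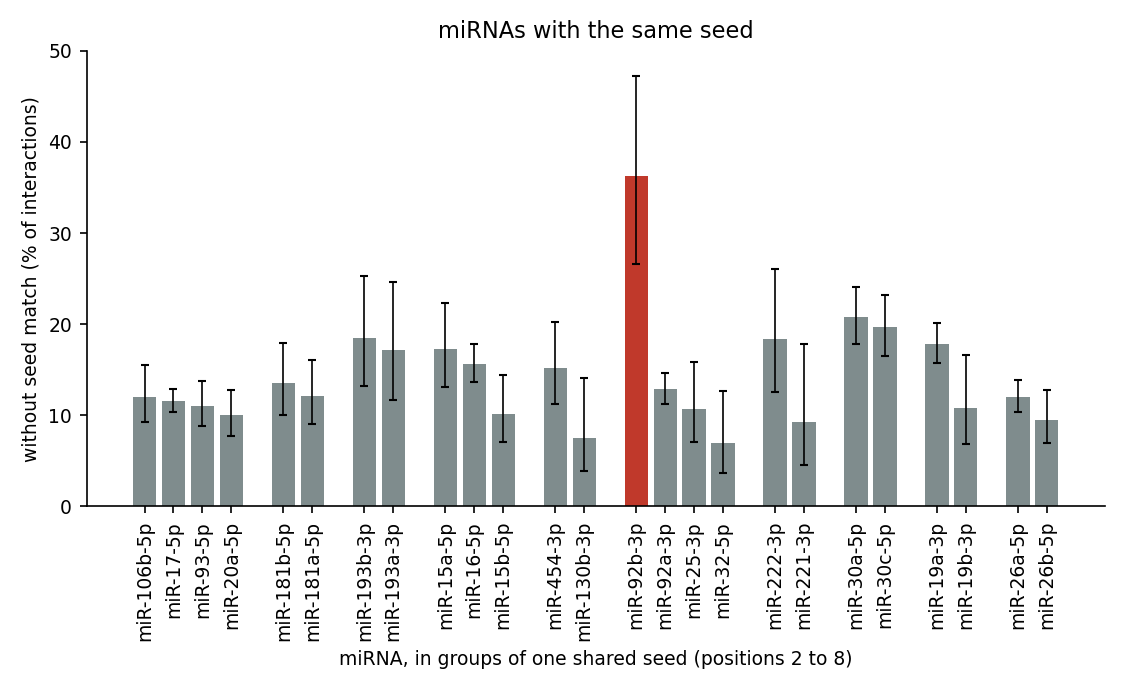
Share of interactions without seed match (in percent, with 95% Wilson intervals) for 25 miRNAs in 10 groups that share the seed, positions 2 to 8. miR-92b-3p lies at 36.3%, above the other miRNAs with its seed at 6.92% to 12.9%.

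The bases of the seed were set beside the share as a description. With 2, 3 or 4 G or C among the 7 seed bases the share was 14.1%, 14.3% and 14.9%, with 5 it was 20.4%, with 6 it was 29.2% and with all 7 it was 61.0% (53.8 to 67.7). The last value rests on 6 miRNAs with 187 interactions, 139 of them from miR-4488. A CG dinucleotide in the seed went with a share of 34.9% (348 of 998 interactions, 54 miRNAs), against 14.4% (3640 of 25317) without one. The 5 tested miRNAs of that kind were miR-423-3p at 22.5%, miR-574-3p at 24.0%, miR-191-5p at 30.7%, miR-122-3p at 34.6% and miR-4488 at 73.4%, all above 14.9%. Over 68 miRNAs with a sequence, the number of G and C in the seed and the share had r = 0.31 and rho = 0.05. Over the 61 of them with a share of at most 30%, r was −0.005 and rho −0.036. The 1 tested miRNA with 6 G or C had a share of 17.9%.

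The pairing along the miRNA was read from the duplex that RNAhybrid had predicted between each miRNA, without its first base, and its region. Pairing had been forced at seed matches and at mismatched or bulged matches where the region held them, and it was left free where there was none, so that differences from regions with a seed match are in part built into the prediction. In members, 24.5% had position 2 paired, 40.3% position 3, 49.5% position 4 and 59.3% position 8. From position 9 to position 16 the paired share was 65.4% to 68.2%, and it was highest at position 19 with 75.1% (73.8 to 76.3). In regions with a canonical match (8mer, 7mer, 6mer or offset 6mer), positions 3 to 6 were always paired, the share was 50.4% at position 9 and 48.8% at position 10, and it reached 72.5% at position 19. Averaged over members, pairing thus started weak and grew towards the middle of the miRNA. At positions 9 and 10 it was above that of canonical matches. The average joined unlike profiles. In the 1981 members of class 4, a class with little seed pairing described below, 2.83% had position 4 paired and 58.8% position 8. In the 2785 members of other classes, 68.0% had position 3 paired, 82.7% position 4, 77.0% position 5 and 59.7% position 8.

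On average, members had 3.46 ± 1.86 (SD, n = 4766) of the 7 seed positions paired, against 5.62 ± 1.37 (SD, n = 27175) in regions with any seed match and 6.52 in those with a canonical match. This is a description, since the absence of a match fixes much of it. Few members reached the upper end, as 583 (12.2%) had at least 6 of 7 seed positions paired, and 91.3% of these used at least 1 G:U pair there, against 33.0% of the regions with a seed match that reached 6. All 7 positions were paired in 152 members, 146 of them with a G:U pair in the seed. At the other end, 1259 members (26.4%, 25.2 to 27.7) had at most 2 seed positions paired and 569 (11.9%) had none, against 3.04% and 1.45% with a seed match.

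Auxiliary pairing, from position 9 on, was slightly richer in members. It averaged 9.10 ± 2.40 paired positions (SD, n = 4766), against 8.79 ± 2.56 (SD, n = 27175) with a seed match, and within miRNAs the difference was 0.464 (95% interval, 0.394 to 0.535; least squares with a term per miRNA, p = 2.8e-38). The difference is under 1 pair and small beside the spread between regions. It was 0.977 against canonical matches, 0.216 against all other matches, 0.299 without the 12 most frequent miRNAs and 0.237 counting Watson-Crick pairs alone. Among interactions of at least 2 reads it was 0.0137, with an interval of −0.397 to 0.424. G:U pairs were more frequent, with 2.04 ± 1.603 per duplex in members against 1.53 ± 1.30 with a seed match.

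The longest uninterrupted run of pairs lay in a different place. It was centred from position 13 on in 54.8% of members (53.4 to 56.2), at positions 9 to 12 in 24.0% and in the seed in 21.2%. With a seed match these shares were 39.0%, 9.59% and 51.4%. This contrast is a description, since the rule leaves out seed matches and pairing was forced where a match was present. Long runs were not more frequent, since 212 members (4.45%, 3.90 to 5.07) had a run of at least 10 positions, against 6.51% (6.22 to 6.81) with a seed match. The median run of members was 6 positions.

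**Figure D3:**
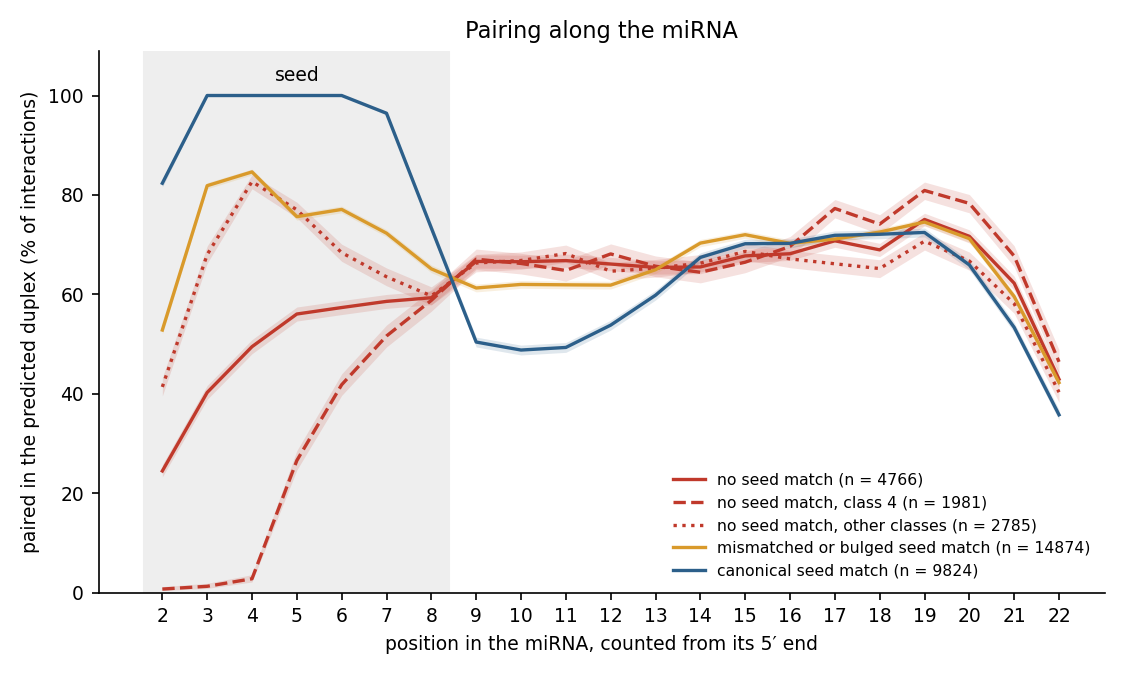
Percent of interactions paired at each miRNA position, 2 to 22 from the 5′ end, in predicted duplexes, for regions without seed match and for regions with matches of other kinds. Members had 24.5% paired at position 2 and 75.1% at position 19, while regions with a canonical match fell to 50.4% at position 9 behind a paired seed.

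The study sorted all predicted duplexes into 7 classes by k-means clustering of paired positions, and class 4 is the class with little seed pairing. It held 1981 members, 41.6% (40.2 to 43.0), against 1535 regions with a seed match, 5.65% (5.38 to 5.93). Members made up 56.3% of class 4 (54.7 to 58.0). With the miRNA as stratum the odds ratio was 14.3 (Mantel–Haenszel, 13.1 to 15.6). This odds ratio is a description, since the rule leaves out regions with a seed match and pairing was forced at such matches. It was 9.24 against matches other than canonical ones, 24.7 in 3′-UTRs and 23.1 with N, the number of reads, of at least 2. Members in class 4 had a mean of 1.84 ± 1.44 seed positions paired and 9.50 ± 2.20 auxiliary positions (SD, n = 1981 each), with 77.3% paired at position 17, 74.1% at 18, 80.9% at 19 and 78.3% at 20. Of the remaining members, 732 were in class 6, which had 11 auxiliary positions paired on average and the lowest median free energy. Class 2 took 545 and class 1 took 446, while 443 fell in 5A, 337 in 5B and 282 in class 3.

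miRNAs differed in how their members were divided between classes. Class 4 took 76.0% of the members of miR-186-5p, 71.3% of miR-30a-5p, 69.4% of miR-30c-5p, 64.0% of miR-320a, 62.9% of miR-194-5p and 57.4% of miR-17-5p, and 81.4% of the 59 members of miR-374a-5p. It took 21.5% for miR-574-5p, 21.4% for miR-21-5p, 17.98% for miR-196a-5p, 17.5% for miR-19a-3p, 12.7% for miR-4488, 10.9% for miR-122-5p and 6.38% for miR-4455. Of the miRNAs with the highest shares without seed match, miR-4488, miR-4455 and miR-574-5p thus had few members in class 4. The value for miR-5684 was 39.4%, near the 41.6% of all members. miR-186-5p, miR-30a-5p and miR-30c-5p, which also had a higher share without seed match, lay well above it. In 75 of the 77 miRNAs with at least 5 members, class 4 took a larger share of members than of the regions with a seed match. The rule and the forced pairing enter this comparison too.

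The predicted duplexes of members were less stable. Their minimum free energy (MFE, in kcal/mol, where a lower value is a more stable duplex) averaged −17.5 ± 4.70 (SD, n = 4766), against −19.9 ± 5.42 (SD, n = 27175) with a seed match. The median was −17.0 for members, −18.2 for 5mer and 6mer-A1 matches, −18 for mismatched or bulged matches and −22.2 for canonical matches. Within miRNAs the difference was 2.05 kcal/mol (95% interval, 1.91 to 2.19, least squares with a term per miRNA, n = 31941 interactions, p = 1.2e-189). Part of this difference is built in, as the rule excludes seed matches and pairing was forced where a match was present. Against canonical matches it was 4.18, against all other matches 0.902, and among interactions of at least 2 reads 3.93. By median, members lay nearest to the mismatched or bulged matches. Just across the border of the rule stood the 2477 regions with a 5mer or 6mer-A1 match, of which 4.80% were in class 4 and 11.3% in a 3′-UTR.

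Tested within each of 77 miRNAs, the MFE of members was higher for 56 (72.7%) and lower for 4 (5.19%) at an adjusted p under 0.05 (least squares per miRNA, HC3 errors, added after seeing the data). As above, the rule and the forced pairing enter these differences. The miRNAs with lower MFE were miR-92b-3p, with a mean of −26.1 in members and −22.0 with a seed match, miR-186-5p (−18.4 and −16.7), miR-30c-5p (−17.8 and −16.5) and miR-30a-5p (−16.5 and −15.8). In these 4 miRNAs, auxiliary pairing was also higher in members, with 10.1 positions against 8.65 for miR-92b-3p, 10.6 against 8.60 for miR-186-5p, 10.4 against 8.82 for miR-30c-5p and 9.25 against 8.28 for miR-30a-5p. The opposite was found for miR-574-5p, whose members had a mean MFE of −14.8, against −20.9 with a seed match, and 9.08 auxiliary positions paired, against 10.4. Over the 77 miRNAs, auxiliary pairing was higher in members of 18 (23.4%) and lower in 4 (5.19%), which were miR-574-5p, miR-4488, miR-4279 and miR-140-3p. For miR-92b-3p the fragments were unlike, with 24 of 29 members at 21 nt, against 18 of 51 regions with a seed match. In 16 of these members the duplex also began at base 1. The part of fragment length in its MFE and pairing differences was not tested.

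**Figure D4:**
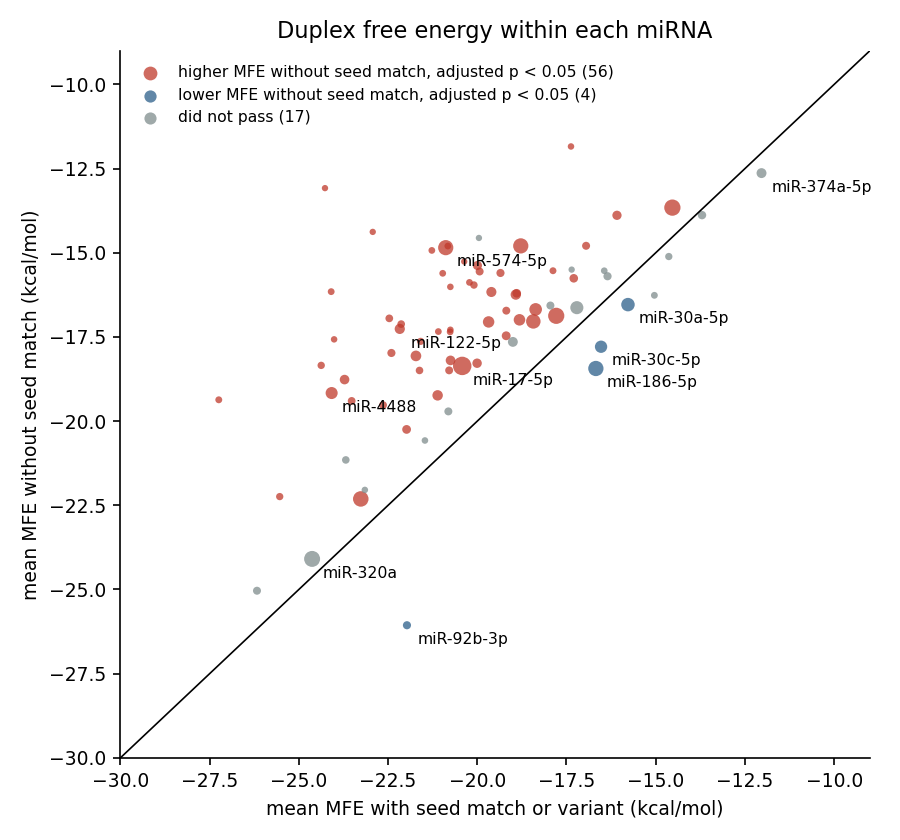
Mean MFE in kcal/mol of regions without seed match (vertical) against regions with a seed match or variant (horizontal), a point per miRNA with at least 5 members, its size growing with their number, and the line of equal values. Of the 77 points, 56 lie significantly above the line, and miR-92b-3p, miR-186-5p, miR-30c-5p and miR-30a-5p lie significantly below it.

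The predicted duplex of members also lay farther from the ligation point. It began at a median of 20 nt into the region, against 10 nt with a seed match, and within miRNAs the difference in means was 6.57 nt (95% interval, 5.99 to 7.14; least squares with a term per miRNA). It was 11.1 nt against canonical matches and 4.38 nt against all others, and 2.69 nt (2.26 to 3.12) among duplexes that lay inside the sequenced fragment, a restriction chosen after seeing the data. Pairing was forced at matches in the other regions and left free in members, so part of this difference is built into the prediction. In 45.6% of members (44.2 to 47.0) the duplex reached past the end of the sequenced fragment, against 26.9% (26.4 to 27.5) with a seed match. For those members part or all of the predicted duplex lay in bases that no read had covered. Unread bases in the searched region of 75 nt were not confined to them. The fragment of members had a median of 46 nt and an upper quartile of 56 nt. The fragment itself averaged 43.7 nt in members and 46.3 nt with a seed match, a difference of −1.19 nt within miRNAs (−1.58 to −0.801).

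Members lay less often in mature mRNA. In the 3′-UTR, where most studied sites are, there were 395 members, 8.29% (7.54 to 9.10), against 12.9% (12.5 to 13.3) of the regions with a seed match. With the miRNA as stratum the odds ratio was 0.663 (Mantel–Haenszel, 0.593 to 0.741, n = 31941 interactions, adjusted p = 5.9e-13). Coding sequence held 487 members, 10.2%, against 13.01% (odds ratio 0.859, 0.776 to 0.951, Mantel–Haenszel, n = 31941 interactions, adjusted p = 0.0040). Deep intergenic regions held 1453 members, 30.5% (29.2 to 31.8), against 23.03% (22.5 to 23.5), with an odds ratio of 1.34 (1.24 to 1.44, Mantel–Haenszel, n = 31941 interactions, adjusted p = 6.6e-15). Introns held about the same part of both, 1895 members or 39.8% against 40.2% (odds ratio 0.969, 0.908 to 1.035, Mantel–Haenszel, n = 31941 interactions, adjusted p = 0.35). Without the 12 most frequent miRNAs, introns were more frequent among members (odds ratio 1.10, 1.007 to 1.20) and passed the threshold. Coding sequence did not pass in fragments of over 30 nt (0.912, 0.817 to 1.02), nor did deep intergenic regions among interactions of at least 2 reads (1.53, 0.990 to 2.36), where the odds ratio was 0.201 for the 3′-UTR and 0.374 for coding sequence.

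The 3′-UTR share was lowest in members and highest with a canonical match. It was 8.29% in members, 11.3% with a 5mer or 6mer-A1 match, 10.7% with a mismatched or bulged match and 16.6% with a canonical match. The deep intergenic share was 30.5% in members, 22.1% with a 5mer or 6mer-A1 match, 25.5% with a mismatched or bulged match and 19.5% with a canonical match. Members in the 3′-UTR had a median MFE of −16.8, against −19.7 with a seed match there, and 42.0% of them were in class 4. Members in coding sequence had a median MFE of −18.4, against −20.7, and 46.8% were in class 4. Whether members in these places differed from each other was not tested. Among the miRNAs with a high share, miR-574-5p had 55.2% of its members in introns, 35.4% in deep intergenic regions and 3.31% in 3′-UTRs. Deep intergenic regions held 71.6% of the members of miR-4488 and 69.7% of those of miR-5684, more than in the members as a whole.

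**Figure D5:**
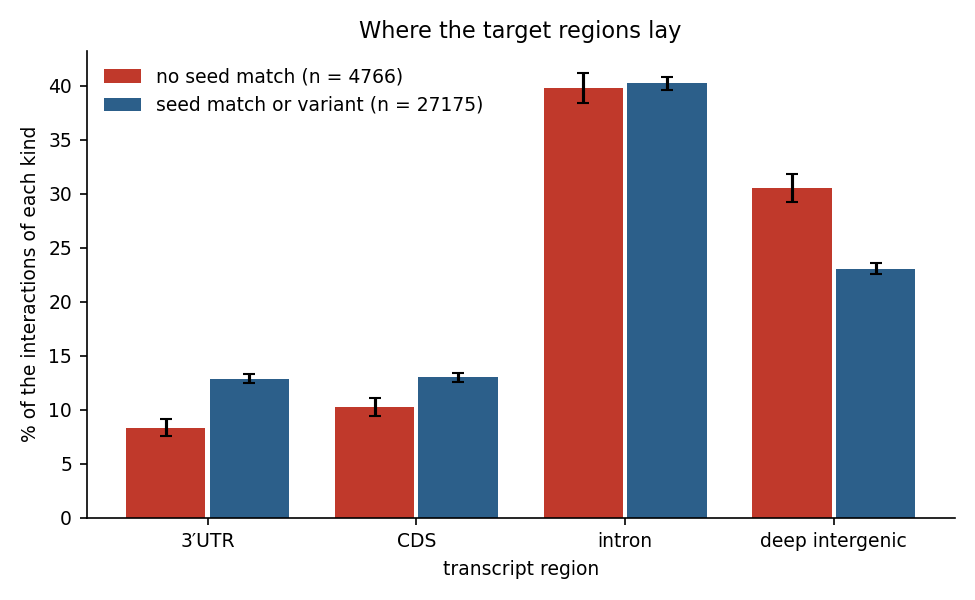
Percent of interactions in 3′-UTR, coding sequence (CDS), intron and deep intergenic regions, with 95% Wilson intervals, for 4766 regions without seed match (left bar) and 27175 with a seed match or variant (right bar). Without seed match the 3′-UTR bar stands at 8.29% against 12.9% and the deep intergenic bar at 30.5% against 23.03%.

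Members were rarely seen in more than 1 read. N, the number of individually cloned chimeric reads, was 1 for 4593 of them, and at least 2 for 173 (3.63%, 3.14 to 4.20), against 4.69% (4.44 to 4.95) with a seed match. The odds ratio within miRNAs was 0.648 (Mantel–Haenszel, 0.542 to 0.776, n = 31941 interactions, p = 2.6e-06). It was 7.34% with a canonical match and 3.15% with a mismatched or bulged match, and against all matches other than canonical ones the odds ratio of members was 0.942 (0.778 to 1.14), so that the difference was that from canonical matches. It was 0.351 (0.284 to 0.435) against canonical matches and 0.155 within 3′-UTRs. For N of at least 3 the odds ratio was 0.883 (0.673 to 1.16).

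A single miRNA accounted for much of the repeated reads. miR-574-5p gave 61 of the 173 members with at least 2 reads, 35.3% (28.5 to 42.6), and 20 of the 27 with at least 5, but 120 of the 4593 with a single read, 2.61%. Of its members, 33.7% had at least 2 reads, against 22.3% of its regions with a seed match. miR-30a-5p also had the larger part in members, 8.09% (11 of 136) against 2.12% (11 of 519). For miR-17-5p it was 3.19% (9 of 282) against 9.19% (199 of 2166) and for miR-92a-3p 1.05% (2 of 190) against 7.07% (91 of 1287). Without miR-574-5p, the share without seed match among interactions of at least 2 reads was 8.37% (7.00 to 9.98), against 11.96% with it.

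The members with the most reads, 10 each, were both of miR-574-5p. They lay in an intron of NFIA, which encodes a transcription factor, at chr1:61356940-61357015 (hg18, coordinates here and below as the table gives them, plus strand, MFE −14.0), and deep between genes at chr9:107818612-107818687 (hg18, plus strand, MFE −15.4). miR-574-5p also gave members of 8 reads in an intron of DPYD, the gene of the first enzyme of pyrimidine breakdown, 7 in an intron of SOX5 and 6 each in introns of ROBO1, NAV2, MID1 and SHANK2. Their MFE ran from −17.0 in ROBO1 to −10.1 in DPYD, which is at or above the median of all members. The predicted duplexes of all the members named in this paragraph reached past the end of the sequenced fragment.

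The most read member in mature mRNA was that of miR-320a in the 3′-UTR of CDCA3, a gene of cell division, at chr12:6828352-6828427 (hg18, minus strand), with 8 reads. Its duplex had an MFE of −29.8, an unbroken run from position 12 to position 21 and 5 of 7 seed positions paired. In the coding sequence of MPHOSPH10, which encodes a protein of ribosomal RNA processing, miR-320a had a member of 5 reads at chr2:71225083-71225158 (hg18, plus strand), with 1 seed position paired and a run from 13 to 21. It had members of 3 reads each in the coding sequences of HNF4A, the gene of a central hepatocyte transcription factor (chr20:42490462-42490537, plus strand, MFE −30), and of HSPA8, which encodes a constitutive heat shock protein (chr11:122435633-122435708, minus strand, MFE −28.8). miR-320a thus supplied the coding and 3′-UTR members with most reads, although its overall share without seed match was low.

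Other members with repeated reads ranged from none to 6 of 7 seed positions paired. miR-192-5p in the coding sequence of the ubiquitin ligase gene UBE3C (2 reads, chr7:156702351-156702426, hg18, plus strand) had no seed position paired and a run from position 13 to 21. miR-186-5p in the 3′-UTR of TXNIP, which encodes a regulator of glucose uptake (2 reads, chr1:144153665-144153740, hg18, plus strand), had none either and 10 auxiliary positions paired. miR-92a-3p in an intron of ANKRD30BL (7 reads, chr2:132729289-132729364, hg18, minus strand) had 4 seed positions and 10 auxiliary positions paired, at an MFE of −26.5. miR-26a-5p at RBM5, the gene of a splicing regulator, had 6 reads, 4 seed positions paired and an MFE of −12.1, and miR-296-5p in the 3′-UTR of ZFP36L2, which encodes an RNA decay factor, had 4 reads, 6 seed positions paired and an MFE of −18. The predicted duplex at RBM5 began at base 44 of the region, past the end of its sequenced fragment of 43 nt. Those at UBE3C and TXNIP began at bases 40 and 28 and reached past fragments of 43 and 34 nt.

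The most stable predicted duplexes belonged to single reads, as did those of 4593 of all 4766 members. The lowest MFE was −37.7, for miR-423-3p in an intron of AAGAB (chr15:65282784-65282859, hg18, minus strand), followed by −37.2 for miR-484 in an intron of CMC1 (chr3:28263828-28263903, hg18, plus strand) with a run from position 11 to 20, and −35.5 for miR-636 in the 5′-UTR of RAC1, which encodes a small GTPase of the cytoskeleton (chr7:6380590-6380665, hg18, plus strand). In 3′-UTRs the lowest values were −33.9 for miR-484 at ID4, −33.4 for miR-320a at PCYT2 and −32.4 for miR-320a at ABCA1, the cholesterol exporter (chr9:106583720-106583795, hg18, minus strand). Next came miR-92b-3p at GLTSCR1L (chr6:42941929-42942004, hg18, plus strand), with −31.8, no seed position paired and a run from position 11 to 22. That duplex began at base 62 of the region, past the end of its sequenced fragment of 56 nt, so no read covered it. For LMNB2, a lamin gene, the run of miR-92a-3p went from position 13 to 22 at an MFE of −30. Each of these duplexes rested on 1 read.

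The members lay at 4573 places, counting overlapping regions of a strand as 1 place, of 29772 places in all. Most stood alone, as 4478 places had 1 member, 63 had 2 and 32 had at least 3, the last with 162 members. The largest number, 17 members of 14 miRNAs, lay in an intron of HFM1, the gene of a helicase of meiosis, at chr1:91625341-91625728 (hg18, minus strand), where 54 interactions of 36 miRNAs were found in all. In an intron of PDE3A, which encodes a phosphodiesterase, 11 of 28 interactions at chr12:20595646-20595795 (hg18, plus strand) were members, and in an intron of PID1 8 of 14 at chr2:229753705-229753870 (hg18, minus strand). A place upstream of a gene, at chr17:30502218-30502392 (hg18, minus strand), had 8 members of 8 miRNAs. Between chr16:33870001 and 33871603, deep between genes, 4 neighbouring places had 7, 7, 6 and 6 members. These places drew many different miRNAs, with and without a seed match.

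In all, 516 members (10.8%, 9.98 to 11.7) overlapped the region of another miRNA, as did 10.8% (10.5 to 11.2) of the regions with a seed match. Within miRNAs the odds ratio was 1.11 (Mantel–Haenszel, 1.00 to 1.23, n = 31941 interactions, p = 0.046), and it was 0.999 without strata, 1.30 (1.15 to 1.47) when the other miRNA had to have another seed, and 2.53 (1.599 to 3.99) among interactions of at least 2 reads. The same duplex, with the same miRNA, map and MFE at another place, was found for 38 members (0.797%), against 1.89% with a seed match.

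A gene symbol was given for 61.8% of members (60.4 to 63.2), against 70.0% (69.4 to 70.5) with a seed match. The members fell in 2047 of 7069 genes, 1564 of which had 1 member, 305 had 2 and 178 at least 3. ANKRD30BL had the most, 19 of its 81 interactions, from 16 miRNAs and at 8 places in its introns. HFM1 had 17 of 55, all at the single place named above. PDE3A had 13 of 35, TENM2, the gene of an adhesion receptor of synapses, 10 of 50 at 10 places, PID1 10 of 25, and MALAT1, a nuclear long noncoding RNA, 10 of 47. IGF2, the fetal growth factor gene often active in hepatoma, had 9 of 27, THRB, a thyroid hormone receptor gene, 9 of 49, and SHANK2, TTC28, ARHGAP5, LOC339862, SUMF1 and LOC100506023 were among the genes with 8.

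None of 76 genes with at least 20 interactions had a share that differed from all other interactions in either direction (0% called, Fisher's exact test, adjusted p under 0.05), where 8 were higher and 2 lower at an unadjusted p under 0.05. With the miRNA as stratum, 4 genes were higher at an adjusted p under 0.05 (Mantel–Haenszel) and none lower, namely HFM1 (odds ratio 2.75), PDE3A (3.26), PID1 (4.18) and LOC100506023 (3.74). The members of HFM1 lay at 1 place, and those of PDE3A and PID1 largely so, while the 8 members of LOC100506023 lay at 8.

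Genes of the hepatocyte were represented. AFP, the fetal counterpart of albumin, had 9 members of 57 interactions, 7 of them in coding sequence, GPC3, a surface proteoglycan of hepatoma, 8 of 56, APOB, the structural protein of low-density lipoprotein, 8 of 49, all in coding sequence, and ALB, albumin, 7 of 33. Over a list of 28 genes of secreted liver proteins, 46 of 290 interactions at 23 genes were members, 15.9% (12.1 to 20.5), and over 16 hepatocyte marker genes 43 of 255, 16.9% (12.8 to 21.9), against 13.4% (12.97 to 13.9) over all genes. All 16 hepatocyte markers had interactions, and 11 of them had members. Of markers of other cells, 2 of 6 neuronal genes had 7 interactions, of which 2 were members. Of 3 glial genes, 1 had 1 interaction, which was not a member, and 4 immune and 4 fibroblast and endothelial genes had none.

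For genes of cholesterol and fatty acid metabolism the share was 13.6% (27 of 198 interactions, 9.54 to 19.1), with 5 of 40 at HMGCS1, which makes the precursor of mevalonate, 3 of 14 at ACACA, the gene of the first enzyme of fatty acid synthesis, 3 of 7 at FADS2 and 2 of 15 at ABCA1. It was 12.2% (12 of 98) for genes of the miRNA pathway and mRNA decay, with 2 of 18 at TNRC6B and 1 of 25 at TNRC6A, which encode partners of AGO, and 2 of 3 at AGO4. Cell cycle genes had 11.3% (7 of 62), among them 2 of 9 at WEE1 and 2 of 8 at CCND1. Genes of translation had 17.1% (12 of 70), splicing genes 13.6% (15 of 110) with 3 of 6 at PRPF8, and chromatin regulators 10.4% (15 of 144) with 3 of 11 at KMT2A. The interval of each of these lists includes the value over all genes.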

How the data were processed

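The authors sequenced RNA purified with AGO from cultured Huh-7.5, with CASAVA 1.8.2 and Bowtie (version not given in the sources used here) named in the submitters' processing notes. They sought miRNA sequences in reads with up to 1 mismatch, mapped the remaining target fragment uniquely to hg18, collapsed PCR duplicates, left out fragments of over 100 nt and set target regions of 75 nt. RNAhybrid supplied duplexes and MFE. The deposited score is the MFE, in a unit the table does not name and taken as kcal/mol, and the deposited count N is the number of chimeric reads. Other columns, such as seed match, duplex map, class and region, are the authors' annotations. Of the files, the pooled chimera table was used, and library depth does not enter its values.

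From these, shares with 95% Wilson intervals, Fisher's exact tests per miRNA (at least 50 interactions) and gene (at least 20), Mantel–Haenszel odds ratios stratified by miRNA and least squares with miRNA terms and HC3 errors were computed (scipy 1.17.1 and pandas 2.3.3 on numpy 2.4.6 in Python 3.11.15, with plots by matplotlib 3.10.9). All tests were two-sided, p-values were adjusted by Benjamini–Hochberg, and the procedures were tested on simulated data. Regions with several labels were counted in none of the 4 regions compared. Named were the genes and miRNAs with the most members or past a test, and the interactions with most reads or lowest MFE, overall and in 3′-UTR and coding sequence. The members and the gene lists were chosen with earlier results of these data known. Alternatives covered read number, match type, strata, region, minimum numbers, overlap and leaving out miRNAs. Some items are not reported here.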

Additional observations from a re-analysis of the deposited data

Results flagged for a closer look

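Chimeras on the mitochondrial genome entered none of the comparisons. Of 771 such interactions, 173 had no seed match, 22.4% (95% Wilson interval, 19.6 to 25.5), against 14.9% (14.5 to 15.3) of nuclear interactions. The difference was not tested, and no level in control samples could be given because the table names no library.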

How the results depend on the processing

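Of 170 alternative values, 139 kept direction and side of the threshold or moved by less than their error. The share without seed match, 14.9%, became 11.96% with N of at least 2, 10.1% in 3′-UTRs, 22.7% with 5mer and 6mer-A1 matches counted as none and 16.8% without the 12 most frequent miRNAs. With settings chosen after seeing the data it was 14.1% without miR-574-5p, miR-4488, miR-4455 and miR-5684, 13.5% in fragments of over 30 nt, and 8.37% without miR-574-5p at N of at least 2. With N of at least 2, 8 miRNAs were tested, of which 1 was higher and 3 were lower, in 3′-UTRs 22 were tested with 0 and 0, and 8 were lower at an unadjusted p under 0.001 or in fragments of over 30 nt. With 5mer and 6mer-A1 matches counted as none 2 genes were higher and 1 lower, and with the miRNA as stratum 4 were higher.

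The intron odds ratio changed side, to 1.13 with N of at least 2 and 1.10 without the 12 most frequent miRNAs, where it passed as higher. The odds ratio for regions shared with another miRNA was 0.999 without strata, 0.876 in 3′-UTRs, 0.949 without the 12 miRNAs, 1.026 against canonical matches and 1.07 in fragments of over 30 nt, but 1.19 against other matches, 1.17 with an overlap of at least 38 nt, 1.30 for another seed and 2.53 with N of at least 2. The difference in fragment length was 0.201 nt in 3′-UTRs, 0.338 nt in fragments of over 30 nt and −2.50 nt with N of at least 2. With N of at least 2, the deep intergenic odds ratio was 1.53 (0.990 to 2.36) and the auxiliary difference 0.0137. The odds ratio of repeated reads was 0.883 at N of at least 3 and 0.942 against matches other than canonical ones. That of coding sequence was 0.912 in fragments of over 30 nt. For these changes the cause was not tested.

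Class 4 was not set against canonical matches, which had 0 of 9824 there, and in 3′-UTRs no gene had enough interactions for a test. No paired analysis was possible because the table names no library or replicate, and for the same reason no library was left out. Most interactions rest on 1 read, which limits any statement on single ones.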
